A study of Mus musculus with 22 samples.

Results

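Neutrophils are short-lived white blood cells that carry their antimicrobial proteins ready made in granules. The azurophil granules are filled first, at the promyelocyte step, with myeloperoxidase and a family of serine proteases. The specific and gelatinase granules are filled later. The specific granules are filled at the myelocyte and metamyelocyte steps, with lactoferrin, cathelicidin and lipocalin, and the S100 proteins accumulate in the cytosol. In the mouse fetus the liver is the main site of blood formation, so whole fetal liver holds these maturing cells among many erythroid cells and hepatoblasts.

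The 10 genes described here are Mpo, Elane, Prtn3, Ctsg, Ltf, Camp, Ngp, S100a8, S100a9 and Lcn2, out of 37991 genes in the RNA-seq tables. They were selected on their counts and promoter methylation in these same libraries, so their own values are given as a description, and the adjusted p-values printed for them are not independent evidence. RNA-seq was carried out on 3 wild-type and 3 mutant E14.5 livers, and whole-genome bisulphite sequencing on 12 samples, 2 of each genotype from whole embryos at E10.5 and from livers at E14.5 and at E18.5. The bisulphite mutants are MommeD28/MommeD28, homozygous for an Rlf allele from a chemical mutagenesis screen, and the paper gives the same genotype for the RNA-seq livers, which are labelled Rlf mutant. The animals are of strain FVB, FVB/NJ of Line3 in the study's methods, and, wild type included, homozygous for a multicopy GFP transgene. The RNA-seq livers of each genotype are 2 males and 1 female, the E10.5 embryos are all male, each E14.5 pair sequenced after bisulphite treatment is 1 male and 1 female, and the E18.5 livers are all female. Stage and tissue therefore cannot be told apart between E10.5 and the later samples, nor can sex between E10.5 and E18.5.

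The 6 RNA-seq libraries held 12928313 to 14621004 counts. Bisulphite libraries of E14.5 livers were deepest, at 30.3 to 34.2 reads per CpG of the reference, against 15.4 to 17.5 for embryos and 16.5 to 17.0 for the E18.5 livers. Of 14183 genes tested in RNA-seq, 197 were called at an adjusted p under 0.05, 98 of them lower in the mutants. Rlf itself was at 70.4 ± 1.73 CPM (counts per 1e6 reads, SD, n = 3) in wild-type and 74.6 ± 6.28 in mutant livers, so its RNA level does not check the genotype labels. Alb, albumin, which defines cells of the hepatocyte lineage, was at 26652 CPM on average in wild-type livers.

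All 10 genes have few CpGs near their start site. The 300 bases upstream hold 2 to 7 CpGs, against a median of 10 over 21404 autosomal protein-coding promoters of the NCBIM37 (mm9) genome. Below are 30 bases, 5′ to 3′ on the gene's strand, around the CpG that was least methylated in wild-type E14.5 liver among those measured in all 12 libraries in that stretch. Capitals mark CpGs, and they are shown because the liver values given further on fall at these sites. Positions are those of the plus-strand C. No CpG of Elane or S100a8 in that stretch passed the read minimum.
Mpo: ccagggtctcCGgaggtaggcaggcacCGg
Prtn3: accctcagcaCGctctgggtggcagagggc
Ctsg: tgtgggacaccacatgggCGtgggcaaccc
Ltf: ggaaatcactCGgtttcctgtaccagCGcc
Camp: gcccccccacaccctggcCGgcagccaggg
Ngp: ttaggactcaCGttgatgtcctggtttatt
S100a9: ctgtgaagcaatcttcccCGagataaccat
Lcn2: ctcaaccttgcacagttcCGacctggggga

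The Mpo stretch is chr11:87606823-87606852 on the plus strand, 250 bases upstream. That of Prtn3 is chr10:79342216-79342245 on the plus strand, 133 bases upstream. That of Ctsg is chr14:56721469-56721498 on the minus strand, 68 bases upstream. That of Ltf is chr9:110921583-110921612 on the plus strand, 203 bases upstream. That of Camp is chr9:109752052-109752081 on the minus strand, 95 bases upstream. That of Ngp is chr9:110322146-110322175 on the plus strand, 98 bases upstream. That of S100a9 is chr3:90499664-90499693 on the minus strand, 31 bases upstream, and that of Lcn2 is chr2:32243443-32243472 on the minus strand, 136 bases upstream. No other annotated gene lay within 1 kb of any of the 10 start sites. Prtn3 (chr10:79342359-79345919) ends 3138 bases before the start of its relative Elane (chr10:79349057-79350961), and Ltf, Camp and Ngp all lie on chromosome 9.

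Letters bound by myeloid factors were searched on both strands of the same 300 bases. TTGCNNAA, read by C/EBP factors, was in 5 of the 10 windows (Ltf, Camp, Ngp, S100a9 and Lcn2) and in 10.9% of all promoters. GAGGAAG, read by PU.1, was in another 5 (Mpo, Elane, Prtn3, Ctsg and S100a8) and in 12.3% of all promoters. TAACNG, read by MYB, was in 2 (Mpo and Elane) and in 22.2% of all promoters. These are matches of letters and not binding sites.

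In RNA-seq of E14.5 livers, the genes of the later granules and the S100 genes were lower in Rlf mutants, while Mpo, Prtn3 and Ctsg of the azurophil granule were at like levels in both genotypes. At an adjusted p under 0.05, 7 of the 10 genes were called lower and none higher. Over all genes tested, 0.691% were called lower and 0.698% higher. Every mutant liver was below every wild-type liver for the same 7 genes, as for 9.84% of all genes tested. The list was named for this contrast, so nothing is read from these counts. In whole liver, fewer cells of a type and less RNA per cell cannot be told apart.

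**Figure D1:**
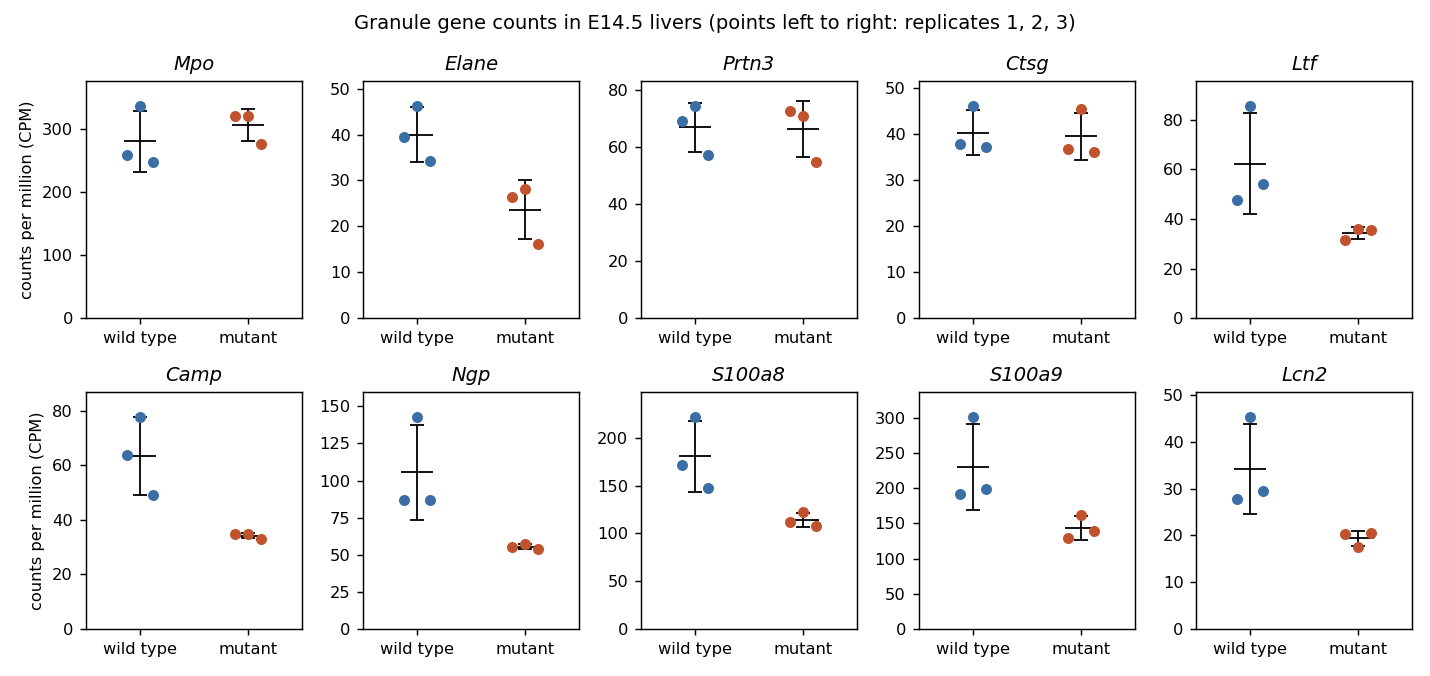
CPM of each granule gene in the 3 wild-type and 3 mutant E14.5 livers, with points for replicates 1 to 3 and the mean and SD in black. Mutant livers lie below wild-type livers without overlap for Elane, Ltf, Camp, Ngp, S100a8, S100a9 and Lcn2, and wild-type replicate 2 is the highest library in all 10 panels.

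Mpo encodes myeloperoxidase, which makes hypochlorous acid in the phagosome. It was at 258, 335 and 247 CPM in the wild-type livers and at 320, 320 and 276 CPM in the mutants. The groups overlapped, with a log2 fold change of 0.13 ± 0.11 (SE). Without wild-type replicate 2 the mutants were all above the remaining wild types, at a log2 fold change of 0.27 (adjusted p = 0.12, edgeR). Prtn3, proteinase 3, was at 69.1, 74.3 and 57.4 CPM in wild-type and 72.8, 71.1 and 54.97 CPM in mutant livers. Ctsg, cathepsin G, was at 37.8, 45.9 and 37.0 CPM and at 36.8, 45.4 and 36.1 CPM. Both had log2 fold changes within 1 SE of 0, at -0.02 ± 0.11 and -0.03 ± 0.11.

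Elane, neutrophil elastase, stood apart from the other azurophil proteases. It was at 39.5, 46.1 and 34.3 CPM in wild-type and at 26.5, 28.2 and 16.2 CPM in mutant livers. The groups did not overlap, and the log2 fold change was -0.76 ± 0.17 (adjusted p = 0.049, edgeR). Within single livers, Elane amounted to 0.572 to 0.620 of the Prtn3 CPM in wild types and to 0.295 to 0.397 in mutants, a ratio that uses the same counts.

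Ltf encodes lactoferrin, which binds iron and is a standard marker of specific granules. It was at 47.6, 85.4 and 54.1 CPM in wild-type livers and at 31.5, 35.9 and 35.5 CPM in mutants, a log2 fold change of -0.86 ± 0.17 (adjusted p = 0.033, edgeR). Camp encodes the precursor of the cathelicidin peptide. It was at 63.7, 77.6 and 48.9 CPM against 34.7, 34.9 and 33.0 CPM, a change of -0.89 ± 0.13 (adjusted p = 0.0065, edgeR). The 3 mutant values of Camp lie much closer together than the wild-type values.

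Ngp, a cystatin-like protein of mouse specific granules, was at 86.7, 143 and 86.9 CPM in wild-type and at 55.3, 57.1 and 53.8 CPM in mutant livers. Its log2 fold change was -0.93 ± 0.16 (adjusted p = 0.014, edgeR), and -0.65 without wild-type replicate 2. Lcn2, a lipocalin that captures bacterial siderophores, was at 27.7, 45.3 and 29.5 CPM against 20.2, 17.5 and 20.5 CPM, a change of -0.82 ± 0.16 (adjusted p = 0.032, edgeR). For both genes the highest value by far was in wild-type replicate 2.

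S100a8 and S100a9 encode the subunits of calprotectin, the zinc- and calcium-binding complex of the neutrophil cytosol. S100a8 was at 172, 222 and 148 CPM in wild-type and at 111, 122 and 108 CPM in mutant livers, a log2 fold change of -0.67 ± 0.12 (adjusted p = 0.019, edgeR). S100a9 was at 191, 301 and 199 CPM against 129, 161 and 139 CPM, a change of -0.69 ± 0.15 (adjusted p = 0.045, edgeR). The ratio of S100a8 to S100a9 was 0.793 ± 0.091 in wild types and 0.799 ± 0.059 in mutants (SD, n = 3 each).

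Per kilobase of exon, the wild-type order ran from S100a8 (460 RPKM) and S100a9 (441 RPKM) through Camp (105 RPKM), Ngp (86.6 RPKM) and Mpo (81.8 RPKM) to Elane (43.5 RPKM), Ctsg (40.2 RPKM), Prtn3 (38.7 RPKM), Ltf (22.7 RPKM) and Lcn2 (14.8 RPKM). S100a8 and S100a9 did not differ beyond their SDs of 95.9 and 117 RPKM, nor did Camp and Ngp, Ngp and Mpo, or Elane, Ctsg and Prtn3. Camp and Mpo lay further apart than the SD of Mpo (14.1 RPKM) but not that of Camp (23.9 RPKM). The genes share livers, so these SDs do not measure how steady their order is within livers, which was not tested. In mutants S100a8 and S100a9 were still highest, at 290 and 274 RPKM, and Mpo came next at 89.3 RPKM, above Camp at 56.9 RPKM and Ngp at 45.5 RPKM.

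Summed over the 4 azurophil genes, the level was 427 ± 66.0 CPM in wild-type and 435 ± 44.8 CPM in mutant livers. Summed over the 6 others it was 676 ± 171 CPM and 400 ± 25.4 CPM. The later genes thus amounted to 1.45, 1.74 and 1.51 times the azurophil sum in wild types and to 0.836, 0.923 and 1.02 times in mutants. The groups do not overlap, which follows from the values of the 6 genes given above. Most of the azurophil sum is Mpo, at 280 CPM on average in wild-type and 306 CPM in mutant livers. The sum therefore does not show the lower mean of Elane, at 40.0 and 23.6 CPM. Across the 6 livers, log2 CPM of the 6 later genes rose and fell together, with Pearson's r of 0.911 to 0.987 over their 15 pairs. Over the 6 pairs of azurophil genes it was 0.084 to 0.724, the lowest being that of Mpo with Elane. Mpo, Prtn3 and Ctsg were at 0.623 to 0.724 with each other, and Elane at 0.747 to 0.891 with the later genes. These points share libraries and the genotype difference, so they are a description.

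The calls depend on single libraries. Without mutant replicate 1, or without mutant replicate 3, Camp was the single gene of the 10 still called, and 0.271% and 0.300% of all genes were called lower. Without mutant replicate 2 there were 4, and 0.431% of all genes. Without wild-type replicate 2, 6 were called, Elane being lost (adjusted p = 0.088, edgeR), while 0.883% of all genes were called lower. The log2 fold changes of the 7 genes then lay between -0.72 and -0.45. Elane also lost its call with another normalization (RLE size factors) and without wild-type replicate 1 or 3, and S100a9 without wild-type replicate 3. DESeq2 called 4 lower, and 0.783% of all genes, but not Elane, Ltf or S100a9 (adjusted p = 0.16, 0.072 and 0.14). The sign was negative for all 7 genes in every one of these fits.

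Other genes of the neutrophil lineage were taken from 4 lists, of which 40 of 42 genes passed the filter on low counts. None of these is among the 10 genes, and they were taken up with the lower level of neutrophil genes in these livers already known. Of the 40, 3 were called lower and none higher, against 0.691% and 0.698% of all genes tested. A log2 fold change below 0 was found for 33 of the 40 and for 50.6% of all genes tested. Their median log2 fold change was -0.26, against 0.00 over all genes tested. Summed over the 42 genes, the level overlapped between genotypes, at 913 to 1185 CPM in wild types and 815 to 926 CPM in mutants. The sums of the specific and gelatinase granule list did not overlap, at 438 to 586 CPM and 366 to 422 CPM, while those of each other list did. With replicate number as a block, 6 of the 40 were called lower, as were 1.39% of all genes tested in that fit, the added ones being Fcnb, Chil3 and Lyz2 (adjusted p = 0.0032, 0.012 and 0.0082, edgeR). Without mutant replicate 1 or 3, 1 was called.

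**Figure D2:**
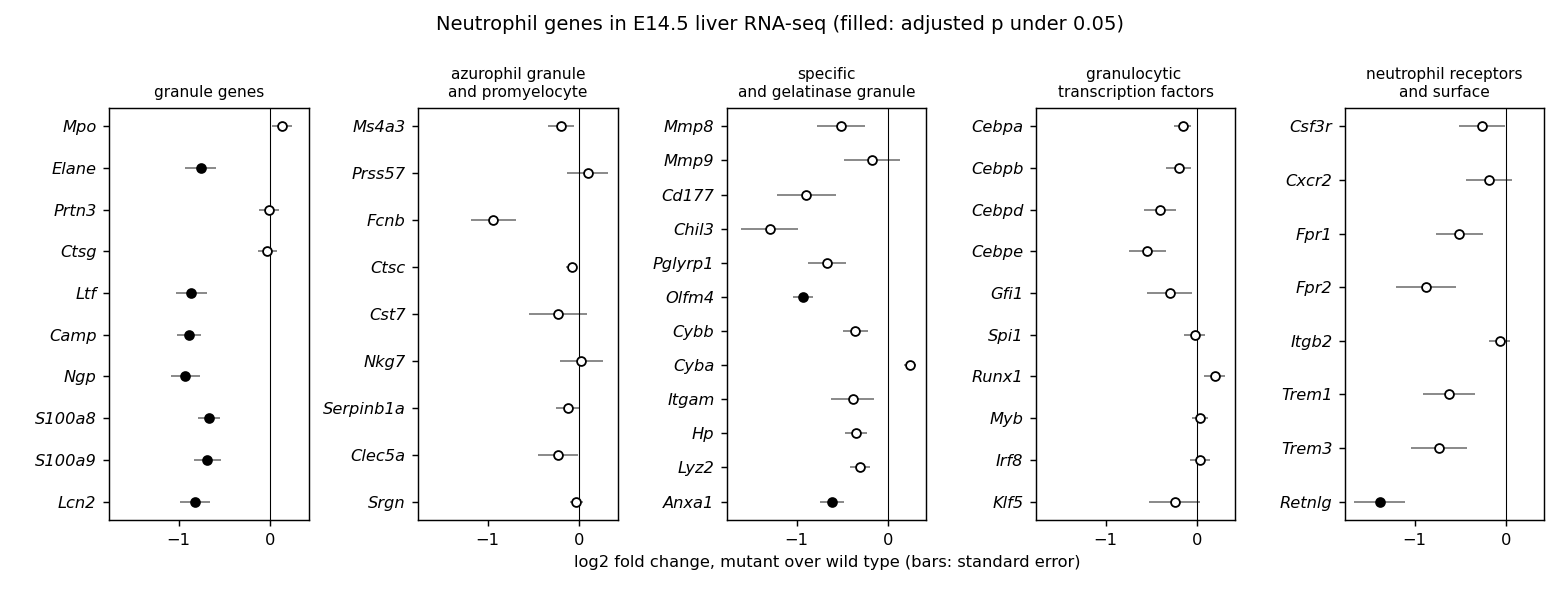
Log2 fold change of mutant over wild type with its standard error for the granule genes and for tested genes of 4 further neutrophil lists, filled where the adjusted p is under 0.05. Outside the granule genes, Olfm4, Anxa1 and Retnlg are filled, and most points of each of the 4 lists lie left of 0.

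Of the list of specific and gelatinase granules, 2 of 12 tested genes were called lower. Olfm4, olfactomedin 4, which marks a part of the specific-granule cells, was at 63.5, 84.8 and 62.5 CPM in wild-type and at 36.2, 38.9 and 35.4 CPM in mutant livers, with a log2 fold change of -0.93 ± 0.11 (adjusted p = 0.0017, edgeR). Anxa1, annexin A1, was at 66.7, 92.9 and 63.4 CPM against 43.5, 52.8 and 49.2 CPM, a change of -0.62 ± 0.13 (adjusted p = 0.040, edgeR). Neither gene's groups overlapped. Lyz2, lysozyme, also made by macrophages, had a log2 fold change of -0.31 ± 0.11 (adjusted p = 0.21, edgeR), and Cyba, a subunit of the oxidase membrane complex, of 0.23 ± 0.06 (adjusted p = 0.11, edgeR).

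Of the further azurophil and promyelocyte genes, none of 9 tested was called. The most abundant were Ctsc, which activates the granule proteases, at a log2 fold change of -0.08 ± 0.06, Srgn, the granule proteoglycan, at -0.03 ± 0.07, and Serpinb1a, an inhibitor of elastase, at -0.13 ± 0.12. The median of the list was -0.13, and that of the specific and gelatinase list -0.45. The difference between the lists was not tested.

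Of 10 transcription factors of granulocytes, none was called. Cebpa, needed to enter the granulocyte lineage, was at -0.16 ± 0.10, Myb at 0.03 ± 0.09 and Spi1, which encodes PU.1, at -0.03 ± 0.12. Of 9 receptors and surface genes, Retnlg, a resistin-like gene of mature neutrophils, was called. It was at 6.18, 10.1 and 4.42 CPM in wild-type and at 2.41, 2.74 and 2.81 CPM in mutant livers, a log2 fold change of -1.38 ± 0.28 (adjusted p = 0.034, edgeR). Itgb2, an integrin subunit of leukocytes, had a change of -0.07 ± 0.11.

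Single genes of other cell types were called as well. Of the eosinophil, basophil and mast cell list, 1 of 6 tested genes was called lower, Prg2, major basic protein, at 51.2 ± 4.67 CPM in wild-type and 21.3 ± 4.13 CPM in mutant livers. The log2 fold change was below 0 for all 6, as for 50.6% of all genes tested. Every mutant liver was below every wild-type liver for 4 of the 6, as for 9.84% of all genes tested. Their median log2 fold change was -0.74, and that of the 10 granule genes -0.73. The summed level of that list was 72.4 to 86.9 CPM in wild types and 33.5 to 44.2 CPM in mutants. Of 11 macrophage genes, Cd5l was called lower, while the log2 fold change was below 0 for 5 of the 11 and their median was 0.06. The macrophage sum was 750 to 817 CPM in wild types and 718 to 739 CPM in mutants. Of 7 megakaryocyte genes, Pf4 was called higher, the summed level being 535 to 566 CPM in wild types and 640 to 704 CPM in mutants. None of the tested erythroid (10), hepatoblast (9), endothelial (6) or lymphoid (2) genes was called, while the hepatoblast sum was 56806 to 67446 CPM in wild types and 69322 to 80460 CPM in mutants, and the endothelial sum 268 to 295 CPM and 297 to 347 CPM. The erythroid sums overlapped, at 17527 to 27076 CPM and 18636 to 21413 CPM, as did the lymphoid sums, at 5.401 to 6.48 CPM and 5.28 to 6.49 CPM. With replicate number as a block, Epx and Marco of the eosinophil and macrophage lists were called lower as well (adjusted p = 0.038 and 0.023, edgeR), and Itga2b of the megakaryocyte list higher (adjusted p = 0.032, edgeR). The part of these in the values of the granule genes was not tested. Wild-type replicate 2 was the highest library for all 10 granule genes and for 32 of the 40 other neutrophil genes tested, as for 18.2% of all genes tested, and it was the lowest for the sums of erythroid and of hepatoblast genes among wild types.

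The 8 genes outside the list whose log2 CPM had the highest mean correlation with the 10 over the 6 livers, among 13636 genes, were Hsdl1, Trpm2, Sart1, Coq5, Ebpl, Kif17, Scmh1 and Med4. Their mean Pearson's r with the 10 genes was 0.783 to 0.797, and the lowest with any 1 of the 10 was 0.204 to 0.491. All 8 were highest in wild-type replicate 2, as were the 10 genes, so this likeness leans on that library. Some varied little between livers, such as Scmh1 at 39.8 to 43.4 CPM. None of them was called between genotypes, the largest change being -0.36 ± 0.26 (Kif17), and none is on the neutrophil lists.

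In bisulphite sequencing, the level of a promoter is its percent of methylated reads, summed over the CpGs within 1 kb of the start site with at least 6 reads in all 12 libraries. All 10 promoters were highly methylated in E10.5 embryos and less so in fetal liver. In wild types their mean was 79.8% ± 0.965 (SD, n = 2) in embryos, 55.2% ± 1.25 in E14.5 livers and 55.8% ± 1.05 in E18.5 livers, while the median of all 19898 promoters was 7.22%, 7.29% and 6.87%. Reads behind single values numbered from 65 (Mpo, 7 of 17 CpGs) to 1283 (Elane, 23 of 33 CpGs), and 95% Wilson intervals reached 2.29 to 11.7 points to either side, for counting error alone.

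**Figure D3:**
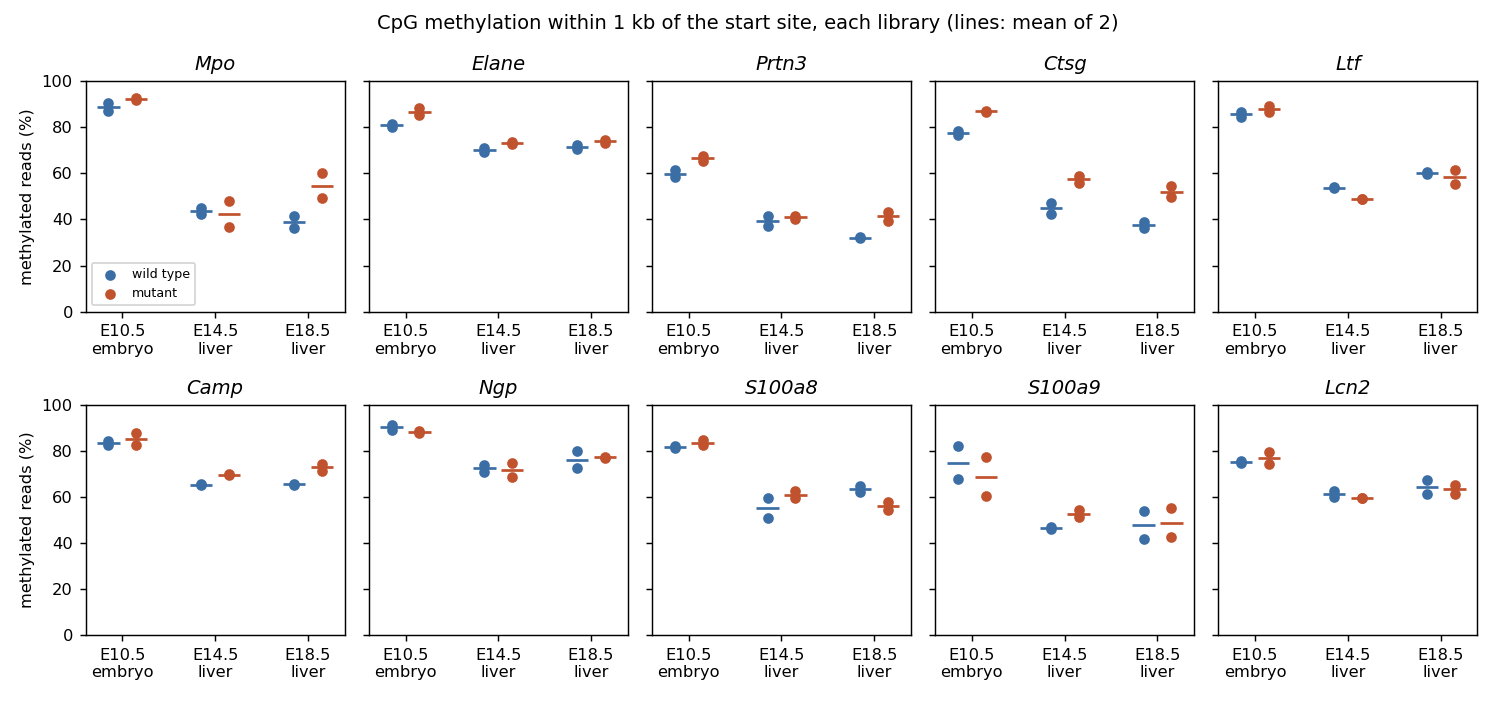
Percent of methylated reads within 1 kb of the start site of each granule gene, 1 point per library with the mean of 2 as a line, by stage and genotype. Every liver lies below every embryo of its genotype for all 10 genes, and for Elane and Ctsg both mutants lie above both wild types at each stage. The share of all promoters with either pattern was not counted. Both wild-type E14.5 livers lay below both wild-type embryos at 51.4% of all promoters.

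From wild-type E10.5 embryo to E14.5 liver, methylation was lower at all 10 promoters, by 10.8 points (Elane) to 45.0 points (Mpo), and all 10 were called. Of all promoters, 42.1% were called lower, and at 51.4% both livers were below both embryos. Among the 6547 promoters above 50% in wild-type embryos, 93.3% were called lower, with a median change of -20.6 points, and the median of the 10 was -23.5 points. Over the autosomes, methylation was 71.3% ± 0.973 in wild-type embryos and 57.4% ± 1.502 in E14.5 livers (SD, n = 2). The share of the 10 is thus near that of methylated promoters in general. In mutants all 10 were called lower as well, by 13.3 points (Elane) to 49.7 points (Mpo), as were 44.6% of all promoters. S100a9 lost its call there without mutant E10.5 replicate 2 (adjusted p = 0.42, edgeR) and without mutant E14.5 replicate 1 (adjusted p = 0.078, edgeR), and Lcn2 in a window of 500 bases (adjusted p = 0.18, edgeR).

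Mpo was methylated at 90.5% and 87.1% in wild-type embryos, at 42.5% and 45.0% in E14.5 livers and at 41.5% and 36.4% in E18.5 livers. Ltf was at 84.6% and 86.7%, at 53.6% and 53.9%, and at 60.4% and 59.8%. Elane stayed highly methylated, at 80.2% and 81.3%, then 69.1% and 70.9%, then 70.7% and 72.3%. Prtn3 was the least methylated of the 10 in wild-type embryos, at 58.3% and 61.3%, and was at 37.0% and 41.3% in E14.5 and 32.4% and 31.9% in E18.5 livers. S100a8, Camp and Lcn2 were higher, at 50.8% and 59.6%, 65.3% and 65.5%, and 60.0% and 62.5% in wild-type E14.5 livers. S100a9 rests on 5 CpGs and varied most between embryos, at 82.2% and 67.7% in wild types and 60.2% and 77.5% in mutants.

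The order of methylation was not the order of RNA. Ngp was at 70.9% and 73.8% in wild-type E14.5 livers, the highest of the 10 with Elane, with a level of 86.6 RPKM, while Prtn3, with the lowest methylation, was at 38.7 RPKM. Both values are averages over all cells of a whole liver.

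Between wild-type E14.5 and E18.5 livers no promoter of the 10 was called, with changes of -7.23 points (Ctsg) to 8.27 points (S100a8), and 2.59% of all promoters were called. In mutants none of the 10 was called between these stages either, with changes of -5.34 to 12.2 points, against 6.20% of all promoters.

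The CpGs of the printed stretches were chosen as the lowest in wild-type E14.5 liver, so their low level there, and part of any difference from embryos or mutants, is set by that choice. The Ltf CpG of the printed stretch was at 78.6% in wild-type embryos, 10.3% in wild-type and 13.1% in mutant E14.5 livers, with at least 7 reads in every library. All 4 CpGs of Ltf within 300 bases upstream were between 10.3% and 13.5% in wild-type E14.5 livers, and between 8.84% and 13.1% in mutants. The printed Mpo CpG was at 83.5% in wild-type embryos and at 11.1% and 14.7% in wild-type and mutant E14.5 livers. That of S100a9 was at 68.1% in wild-type embryos, 18.4% in wild-type and 31.7% in mutant E14.5 livers. That of Ctsg was at 78.7%, 23.3% and 35.8%, and that of Lcn2 at 62.5%, 17.7% and 28.4%. That of Prtn3 was at 36.8%, 21.0% and 19.04%. Those of Ngp and Camp stayed above these, the Ngp CpG at 57.2% in wild-type and 58.3% in mutant E14.5 livers and the Camp CpG, with as few as 6 reads in a library, at 60.2% and 82.7%. In E18.5 livers, which the choice did not use, wild types and mutants were at 40.0% and 17.9% for Lcn2, 73.3% and 67.9% for Camp, 24.04% and 17.71% for Prtn3, and 52.3% and 49.6% for Ngp, with the mutants lower. They were at 30.1% and 48.3% for Mpo, 19.8% and 26.8% for Ctsg, 8.85% and 11.47% for Ltf, and 22.1% and 28.0% for S100a9, with the mutants higher. These are means of libraries, and the genotypes overlapped at the E18.5 values of Camp, Ngp, Ltf and S100a9. At the E14.5 values they overlapped for Mpo, Ctsg, Lcn2, Prtn3 and Ngp. No test was run on single CpGs.

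**Figure D4:**
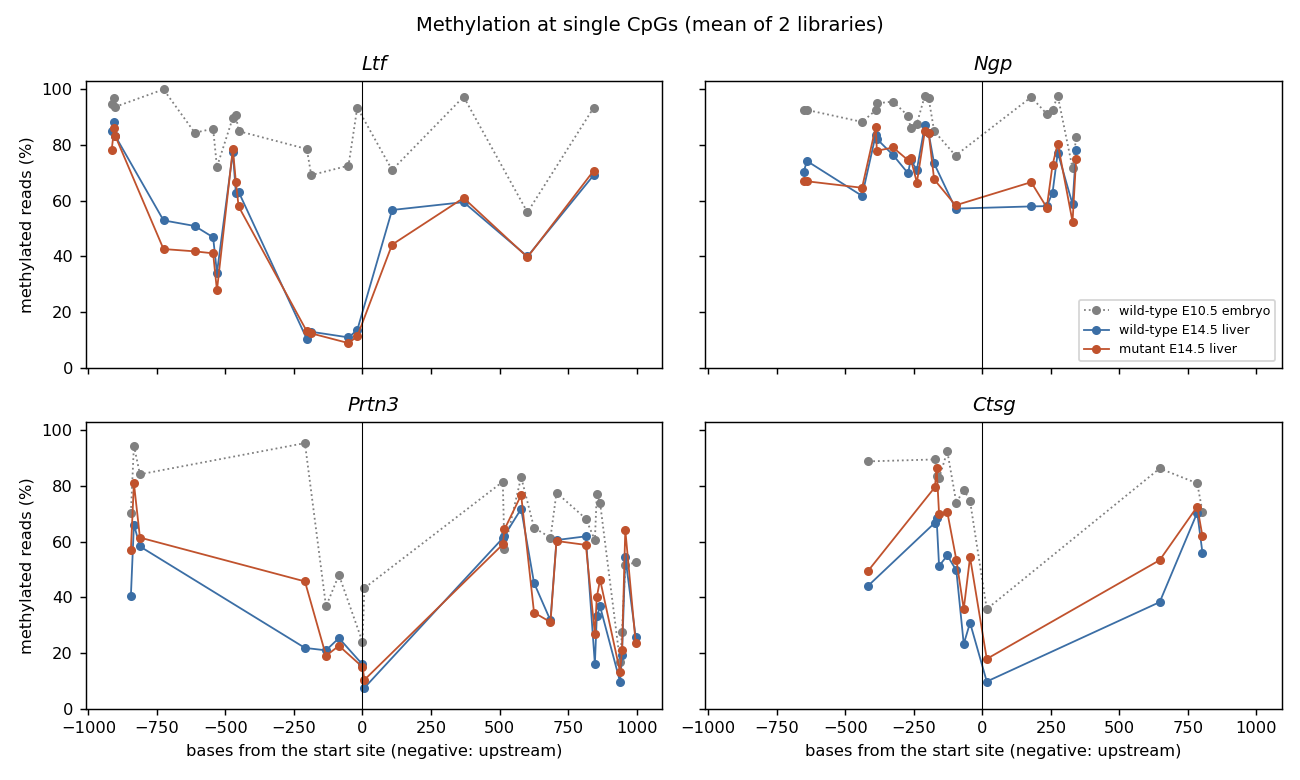
Percent of methylated reads at single CpGs within 1 kb of the start sites of Ltf, Ngp, Prtn3 and Ctsg, against distance in bases, as means of 2 libraries of wild-type E10.5 embryo (grey), wild-type E14.5 liver (blue) and mutant E14.5 liver (orange). The 4 CpGs just upstream of Ltf lie between 8.84% and 13.5% in E14.5 livers of both genotypes, and those of Ngp all lie above 50%. The mutant mean is the higher one at all 12 CpGs of Ctsg, while both mutants lie above both wild types at 5 of them. CpGs of a promoter share the same libraries and are not replicates.

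Between genotypes, none of the 10 promoters was called at any stage, while 2.27% of all promoters were at E10.5, 1.32% in E14.5 livers and 0.764% in E18.5 livers. Both mutants were above both wild types for 6, 5 and 5 of the 10 promoters at the 3 stages, against 34.4%, 36.9% and 27.7% of all promoters. Both were below for 1, 2 and 1, against 7.79%, 8.80% and 10.7%. The median differences of the 10 were 2.13, 2.56 and 1.66 points, and those of all promoters 0.36, 0.39 and 0.21 points. The median level of all promoters in wild types was 7.22%, 7.29% and 6.87%, far below that of the 10. These shares and medians therefore do not compare promoters of like methylation. Over the autosomes mutants were at 73.6% ± 0.500 in embryos, 59.8% ± 0.738 in E14.5 livers and 63.4% ± 2.91 in E18.5 livers. Wild types were at 71.3% ± 0.973, 57.4% ± 1.502 and 61.5% ± 0.230, each mean below that of the mutants.

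Ctsg had the lowest adjusted p of the 10 at each stage. Its promoter was at 76.7% and 78.2% in wild-type and 87.2% and 86.6% in mutant embryos, at 47.3% and 42.4% against 59.0% and 55.9% in E14.5 livers, and at 36.4% and 38.8% against 54.6% and 49.6% in E18.5 livers. The differences were 9.44, 12.6 and 14.49 points (adjusted p = 0.085, 0.081 and 0.094, edgeR). In a fit of E14.5 livers alone the adjusted p was 0.035 (edgeR), and in a window of 500 bases at E10.5 it was 0.033 (edgeR). These were the only genotype calls among the 10 promoters in any fit. The fit of E14.5 livers alone called 663 of all promoters, against 262 in the main fit. Elane was the other gene with both mutants above both wild types at each stage, by 5.85, 3.30 and 2.40 points (adjusted p = 0.12, 0.71 and 0.83, edgeR). The share of all promoters with this pattern at every stage was not counted, so nothing is read from it. At single stages it was 34.4%, 36.9% and 27.7%. The mean RNA levels of Ctsg differed by less than the SD between livers.

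Among the genes called lower in RNA, the methylation differences had both signs and none was called. With 2 libraries per group, the signs of differences this small establish no direction, shared or not. In E14.5 livers the difference of mutant minus wild type was 3.30 points for Elane, -4.98 for Ltf, 4.29 for Camp, -0.68 for Ngp, 5.88 for S100a8, 6.23 for S100a9 and -1.496 for Lcn2. For Ltf both mutants, at 48.7% and 48.8%, were below both wild types, at 53.6% and 53.9%. For Ngp the mutants at 68.7% and 74.7% overlapped the wild types at 70.9% and 73.8%. At E18.5 the largest difference was that of Mpo, 15.7 points, with mutants at 60.0% and 49.4% and wild types at 41.5% and 36.4% (adjusted p = 0.34, edgeR).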

How the data were processed

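The authors deposited raw counts per Ensembl gene for each RNA-seq library, made with TopHat and HTSeq on mm9 without use of strand, and counts of methylated and unmethylated reads per CpG for each bisulphite library, made with Bismark and Bowtie2 on mm9 carrying FVB substitutions, with PCR duplicates removed and strands merged. Tools and build are from the submitters' notes and methods. The percent that the authors deposited beside these counts was not used. Positions in the CpG files count from 0 and were shifted by 1. H3K4me1 ChIP-seq was not analysed here.

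RNA-seq counts were tested with edgeR 4.0.16 (quasi-likelihood, TMM, filterByExpr, Benjamini-Hochberg over 14183 genes) in R 4.3.3. CPM use TMM library sizes. RPKM were computed here from the same counts and the exon union of GENCODE vM1. Promoter counts were summed over CpGs within 1 kb of the start of the transcript with the longest coding sequence, with at least 6 reads in all 12 libraries and at least 3 such CpGs, and 19898 autosomal promoters were tested in 1 edgeR fit of 6 groups. The SE of a log2 fold change is its size over the square root of the quasi-likelihood F. Both fits were tested on simulated data. Every one of the 111 list genes was matched to an identifier. DESeq2 1.42.0 was an alternative, with others named in the closing section.

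Any pairing of RNA-seq livers rests on their shared numbers. Deviations of a wild-type liver and the mutant of its number were correlated in each pair (r = 0.125, 0.226 and 0.409 over 14183 genes). Sex goes with replicate number in those livers. Replicates are separate samples per the labels, and p-values measure the spread between these samples. The genes and lists were chosen with earlier results of these data known. Named are the 10 genes, Rlf, every called gene of the other neutrophil lists with the 3 most abundant in each (1 of which is not reported here), and the 8 most alike in pattern. Genes of other cell types, Fcnb and Chil3 were chosen for naming once their values had been seen.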

Additional observations from a re-analysis of the deposited data

Results flagged for a closer look

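At 2 promoters the genotype difference took opposite directions at different stages, with both mutants on the same side of both wild types each time. Such opposite directions were found at 9.76% of all 19898 promoters. At S100a8 both mutants were above both wild types in E10.5 embryos, by 1.93 points on average, and in E14.5 livers, by 5.88 points (59.7% and 62.4% against 50.8% and 59.6%). In E18.5 livers both were below, by -7.49 points on average (57.7% and 54.2% against 64.7% and 62.3%). The nearest values of the E14.5 groups lie closer together than the wild types do. The interaction of genotype with liver stage had an unadjusted p of 0.015 and an adjusted p of 0.9999 (edgeR).

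At Ltf the mutants were above in E10.5 embryos by 2.33 points on average, where the closest libraries of the genotypes were both at 86.7%, and below in E14.5 livers by -4.98 points. This interaction had an unadjusted p of 0.075 and an adjusted p of 0.9988 (edgeR). No interaction of the 10 promoters was called, and 4 of all promoters were.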

How the results depend on the processing

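All 7 granule genes called lower kept a negative log2 fold change in every fit. All 110 alternative values of the 10 genes moved by less than 1 SD between livers. With so few livers per genotype, leaving 1 out can hardly move a group mean by that much. For the fits without 1 library, this count therefore does not show that the values are steady. Of 925 alternative promoter differences of the 10 genes, 88 moved by more than 1 SD, and no called one changed sign. Counts of calls depended more on the fit, and the cause was not tested. In RNA-seq, 532 genes were called with no filter on low counts and 460 with a replicate block, against 197, and 66 to 224 without 1 library. Granule genes called lower were 4 with DESeq2 and 1 to 6 without 1 library, and the replicate block lost none of the 7. Other neutrophil genes called lower were 7 with no filter, where 215 of all 21942 genes were, 6 with the replicate block and 1 to 4 without 1 library.

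Promoters called between genotypes numbered 451 in E10.5 embryos, 254 with a window of 500 bases, 198 with that stage alone and 89 to 571 without 1 library. In E14.5 livers they numbered 262, 170 with at least 1 read per CpG, 663 with that stage alone and 48 to 340 without 1 library. In E18.5 livers they numbered 152, 67 with that stage alone and 53 to 207 without 1 library. Between wild-type E18.5 and E14.5 livers they numbered 516, 829 with at least 1 read, 331 with at least 10, 155 with 500 bases, 1111 with 2 kb, 315 with the replicate block and 30 to 1013 without 1 library. The interaction called 4, 2 with at least 1 read, 11 with the replicate block and 0 to 5 without 1 library (edgeR). Bisulphite samples with the same number did not deviate together (r = 0.052, 0.018 and -0.015 over 6716 promoters), and the main fit used no pairing there. The paper describes the E14.5 livers sequenced this way as littermates, and sex goes with replicate number among them. With 2 libraries per group and the counting error of single promoters, an r near 0 cannot exclude a pairing. From embryo to E14.5 liver in wild types all 10 granule promoters stayed called, except that 1 had too few CpGs with at least 10 reads to be tested. Windows held as few as 65 reads in 1 library, with 2 libraries per group, which limits the precision. In mutants 9 of the 10 stayed called with a window of 500 bases and without either of 2 libraries, and all that could be tested in the other fits.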
